A study of Homo sapiens with 24 samples.

Results

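The genes described here are those of the cellular response to low oxygen and of glycolysis, the route by which glucose is broken down to pyruvate and lactate. A list of 41 symbols named them. PKM and its older symbol PKM2 are 1 gene, so the list held 40 genes, of which 36 were measured among 18417 genes with a probe set of their own. Each gene was read from the probe set annotated to it alone, and where a gene had several, from the one with the highest mean over all arrays. SLC16A1, SLC16A3 and CA9 had no such probe set in the table and were not analysed here. PGAM1 was represented only by probe sets shared with PGAM4, so no value is given for it. All 36 measured genes had a mean log2 signal of at least 5.

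Signals came from Affymetrix arrays hybridised with RNA of 2 human B-lymphoblastoid lines of the HapMap project, GM10861 and GM10855, which are B cells transformed with Epstein-Barr virus. In each line 3 arrays were made from cells given calcitriol and estrogen for 36 h, 3 from cells given calcitriol for 36 h, 3 from cells given estrogen for 36 h and 3 from untreated cells at 0 h, which makes 8 groups and 24 arrays. Calcitriol is the hormonal form of vitamin D and acts through the vitamin D receptor, and estrogen acts through the estrogen receptors. Doses, the kind of estrogen, any vehicle and the culture medium were not given in the sources used here. Untreated cells were collected at 0 h alone, so in any comparison with them the agent and 36 h of culture cannot be told apart, while the groups given an agent were matched for time. Each line is 1 donor's cells, so the lines stand for themselves and not for a population.

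When oxygen is plentiful, the prolyl hydroxylases EGLN1 and EGLN3 mark the factor HIF-1 alpha, encoded by HIF1A, for destruction. When oxygen is scarce the protein persists, pairs with ARNT and binds short hypoxia response elements near genes of glucose uptake, glycolysis, lactate formation and blood vessel growth. Activated and transformed B cells also run glycolysis at a high rate when oxygen is present. An mRNA signal does not measure the HIF-1 alpha protein, whose amount is set largely by that hydroxylation.

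The median log2 signal of an array was 5.38 to 5.50. Correlations over all probe sets were 0.985 to 0.993 for pairs within a group and 0.978 to 0.984 for pairs from different lines. All 9 measured B-lymphoblastoid markers of 10 listed lay above the median tested probe set (5.81), and their mean lay between 8.03 and 8.51 on every array. None of the 5 T cell, 5 monocyte and 2 erythroid markers reached that median (0 of each), and 1 of 4 NK cell markers (NKG7) and 1 of 4 fibroblast markers (COL1A1) did. Between the lines 8 of the 9 B cell markers were called different, as were 2 NK cell markers and 0 of the other lists. Of all tested probe sets 41.8% were called between the lines. With calcitriol 3 of the 9 B cell markers were called, both against untreated cells and when added to estrogen, and 0 of the other lists. The shares of all probe sets called in these 2 comparisons were 0.679% and 0.754%. The part of differing B cell identity in the calcitriol results and in the differences between the lines described here was not tested.

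The promoters of some of the genes described below are shown first. In the RefSeq promoters of build GRCh38.p14, 32 of the 36 genes were found. The letters ACGTG or GCGTG, the core of the hypoxia response element, were searched on both strands in the 250 bases before each start site. They occurred in 22 of the 32 (68.8%), against 11763 of all 27305 promoters (43.1%). The E box CACGTG, which contains one such core on each strand and is also bound by BHLHE40 and MXI1, occurred in 6 of the 32 (18.8%), against 6.49% of all promoters. Exact direct repeats with NNN between the copies, the layout that the vitamin D receptor binds, were searched for AGGTCA and for the variants GGGTCA, then GGTTCA, then AGTTCA. They occurred in 0 of the 32, against 5 of 27305 (0.0183%). A match of letters is not a binding site, and a window without one says only that these letters are not in it.

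The sequences are the promoter of HIF1A, the gene that moved with calcitriol, then those of ANKRD37, a HIF-1 target that came next by p for calcitriol against untreated cells, and of ENO2, LDHA and BHLHE40, whose arrays did not overlap between the lines. HIF1A lies at chr14:61695263-61695512, ANKRD37 at chr4:185396591-185396840, ENO2 at chr12:6914330-6914579, LDHA at chr11:18394313-18394562 and BHLHE40 at chr3:4979187-4979436, all on the plus strand and all written 5′ to 3′ up to the last base before the start site. Capitals mark the core letters on either strand.
HIF1A: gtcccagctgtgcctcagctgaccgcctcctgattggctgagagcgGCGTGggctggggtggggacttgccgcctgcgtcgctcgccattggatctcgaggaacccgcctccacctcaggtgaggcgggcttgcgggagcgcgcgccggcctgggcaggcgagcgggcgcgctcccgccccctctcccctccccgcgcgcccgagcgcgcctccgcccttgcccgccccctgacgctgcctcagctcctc
ANKRD37: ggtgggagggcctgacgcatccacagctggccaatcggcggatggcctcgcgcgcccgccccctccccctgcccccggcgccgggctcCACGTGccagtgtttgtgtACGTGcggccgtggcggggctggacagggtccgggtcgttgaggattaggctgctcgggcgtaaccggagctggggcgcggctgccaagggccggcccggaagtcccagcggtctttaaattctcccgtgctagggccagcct
ENO2: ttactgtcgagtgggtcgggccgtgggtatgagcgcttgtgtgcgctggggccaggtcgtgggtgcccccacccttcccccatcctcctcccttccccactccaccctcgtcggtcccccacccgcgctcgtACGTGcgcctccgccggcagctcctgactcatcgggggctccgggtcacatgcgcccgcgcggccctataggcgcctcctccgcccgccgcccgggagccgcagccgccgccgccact
LDHA: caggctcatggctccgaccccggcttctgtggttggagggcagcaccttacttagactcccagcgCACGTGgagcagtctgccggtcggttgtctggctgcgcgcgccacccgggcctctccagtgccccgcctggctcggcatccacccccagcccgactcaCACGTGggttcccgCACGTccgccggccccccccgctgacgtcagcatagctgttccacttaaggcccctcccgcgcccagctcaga
BHLHE40: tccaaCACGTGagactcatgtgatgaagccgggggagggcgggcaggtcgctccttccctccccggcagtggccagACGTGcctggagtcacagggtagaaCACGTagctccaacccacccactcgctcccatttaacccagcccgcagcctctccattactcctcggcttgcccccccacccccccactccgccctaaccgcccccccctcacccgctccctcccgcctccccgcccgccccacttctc
HIF1A held 1 match, whose first base lay at -204 from the start site, and ENO2 held 1, at -118. ANKRD37 held 2, at -162 and -143, the first of them an E box. LDHA held 3, at -185, -87 and -73, the first 2 of them E boxes. BHLHE40 held 3, at -245, -174 and -149, the first of them an E box. Not every gene without overlap between the lines held a match: PDK1, MXI1, LDHB and EGLN3 held 0 and PFKFB3 held 1. SLC2A3 was not found among the promoters.

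HIF1A, the gene of the oxygen-regulated subunit of HIF-1, was the gene of the 36 whose signal rose with calcitriol. In GM10861 the signal was 8.999, 8.926 and 8.933 (log2) on the arrays of both agents and 8.897, 8.936 and 8.903 with calcitriol, against 8.681, 8.738 and 8.885 with estrogen and 8.874, 8.872 and 8.776 in untreated cells. In GM10855 it was 9.673, 9.447 and 9.632 with both agents and 9.475, 9.397 and 9.514 with calcitriol, against 9.101, 8.926 and 9.055 with estrogen and 9.118, 9.165 and 8.987 in untreated cells. Within each line all 6 arrays with calcitriol lay above all 6 arrays without it, with a wide gap in GM10855 and a narrow one in GM10861. That held for 71 of 21214 tested probe sets (0.335%), and among the 36 genes for HIF1A, 1 gene.

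**Figure D1:**
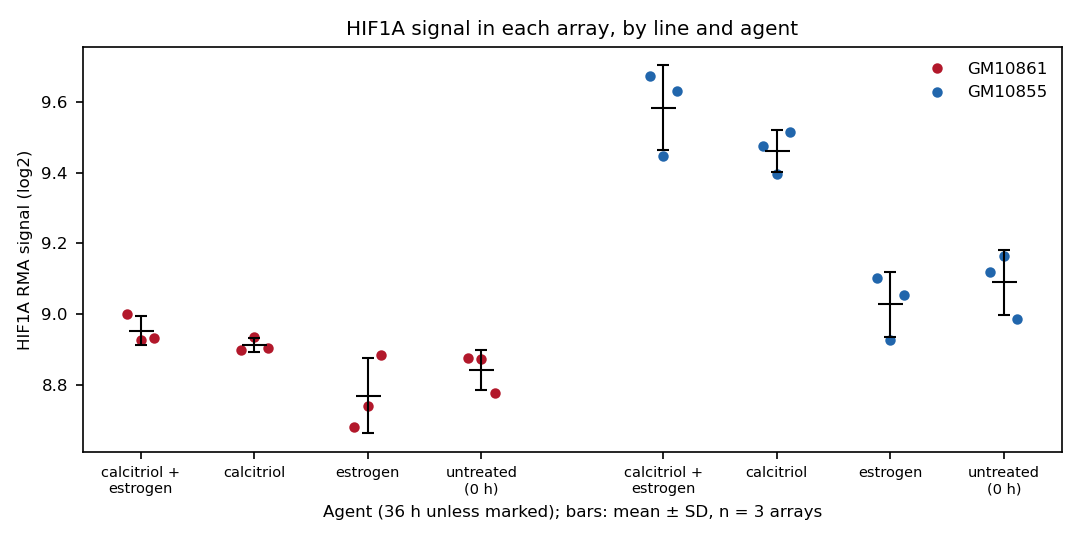
HIF1A signal (log2, vertical axis) on each of the 24 arrays, with GM10861 on the left and GM10855 on the right and the agents along the horizontal axis; points are arrays and bars are mean ± SD of 3 arrays. In GM10855 the calcitriol groups averaged 9.58 and 9.46, above 9.03 with estrogen and 9.09 untreated, and in GM10861 they averaged 8.95 and 8.91, above 8.77 and 8.84.

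The change was called in several comparisons. Adding calcitriol to estrogen, with both groups at 36 h, raised HIF1A by 0.37 ± 0.055 (log2, SE), which is 1.29-fold (95% interval of the log2 change 0.26 to 0.48; limma adjusted p = 0.000406). It was the 1 gene of the 36 called there, where 0.754% of all tested probe sets were called. Calcitriol against estrogen, which uses the same estrogen arrays, gave 0.29 ± 0.055 (1.22-fold, adjusted p = 0.00744), again the 1 gene called, against 0.57% of all probe sets. Both agents against untreated cells gave 0.30 ± 0.055 (1.23-fold, adjusted p = 0.00356), also the 1 gene called, against 1.15%. At an unadjusted p under 0.05 there were 3 genes for calcitriol against estrogen (7.43% of all probe sets) and 4 for both agents against untreated cells (10.9%). These comparisons share arrays, so they are not separate tests of the same change.

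Calcitriol alone against untreated cells gave a smaller HIF1A difference of 0.22 ± 0.055 (1.17-fold), which did not pass (adjusted p = 0.0711), and 0 of the 36 genes were called by limma there, against 0.679% of all probe sets. It passed in 3 of 6 other fits (adjusted p between 0.0134 and 0.134 over the 6), and in 1 of the 24 fits that left out 1 array, that without array 2 of GM10855 given both agents (adjusted p = 0.046). Estrogen against untreated cells gave -0.07 for HIF1A (adjusted p = 0.978), and estrogen added to calcitriol gave 0.08 (adjusted p = 0.723).

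Line by line, the HIF1A change passed in GM10855 and not in GM10861. Adding calcitriol to estrogen gave 0.18 in GM10861 (adjusted p = 0.89) and 0.56 in GM10855 (1.47-fold, adjusted p = 0.000218). In GM10861 0 of the 36 genes were called in that comparison (1 at an unadjusted p under 0.05), where 0.127% of all probe sets were, and in GM10855 HIF1A was the 1 gene called, where 0.632% were. Calcitriol against untreated cells gave 0.07 in GM10861 (adjusted p = 0.961; 0 genes called, against 0.104% of all probe sets) and 0.37 in GM10855 (adjusted p = 0.0209), where it was again the 1 gene called, against 0.509% of all probe sets. The difference between the lines did not itself pass: the response of GM10861 minus that of GM10855 was -0.37 for calcitriol added to estrogen (95% interval -0.60 to -0.14, adjusted p = 0.405) and -0.38 for both agents against untreated cells (95% interval -0.61 to -0.15, adjusted p = 0.205). It was -0.30 for calcitriol against untreated cells (adjusted p = 0.677) and -0.29 for calcitriol against estrogen (adjusted p = 0.674). In each of the 4 comparisons of responses 0 of the 36 genes were called, where 0.00471%, 0.0141%, 0.00943% and 0.0236% of all probe sets were, in the same order. At an unadjusted p under 0.05 there were 1, 5, 2 and 3 genes, where 6.74%, 10.9%, 6.63% and 6.85% of all probe sets passed. The responses to estrogen and to 36 h as a whole likewise gave 0 called genes, against 0% and 0.00471%, with 1 and 3 at an unadjusted p under 0.05, against 5.93% and 8.38%.

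EPAS1 encodes HIF-2 alpha, the second oxygen-regulated subunit. Its signal was low, with group means between 5.04 and 5.24, below the median tested probe set. It differed by 0.15 ± 0.059 between calcitriol and estrogen (adjusted p = 0.46) and by 0.05 when calcitriol was added to estrogen (adjusted p = 0.901), and passed in neither. The prolyl hydroxylases, which are themselves HIF-1 targets, gave -0.01 (EGLN1) and 0.04 (EGLN3) when calcitriol was added to estrogen.

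None of the other 35 genes passed with calcitriol in any comparison averaged over both lines. Outside the glycolytic enzymes, 3 HIF-1 targets reached an unadjusted p under 0.05 in more than one comparison averaged over both lines. They were P4HA1, a subunit of the collagen prolyl hydroxylase, BHLHE40, a repressor that binds E boxes, and ANKRD37, a small ankyrin-repeat protein. P4HA1 averaged 9.05 ± 0.097 in GM10861 and 8.88 ± 0.18 in GM10855 with both agents, against 8.86 ± 0.15 and 8.70 ± 0.12 with estrogen (SD, n = 3 each), a difference of 0.18 ± 0.073 (adjusted p = 0.485). BHLHE40 averaged 7.99 ± 0.13 in GM10861 and 6.72 ± 0.12 in GM10855 with both agents, against 7.81 ± 0.20 and 6.43 ± 0.037 with estrogen, a difference of 0.24 ± 0.10 (adjusted p = 0.55). Array values of both genes overlapped between the groups in at least one line. ANKRD37 averaged 6.29 ± 0.16 in GM10861 and 6.39 ± 0.084 in GM10855 with calcitriol, against 5.93 ± 0.19 and 6.25 ± 0.096 in untreated cells, a difference of 0.25 ± 0.080 (adjusted p = 0.302).

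Among the enzymes, adding calcitriol to estrogen gave -0.13 ± 0.057 for TPI1, the triose phosphate isomerase (adjusted p = 0.537), and -0.19 ± 0.086 for HK2, a hexokinase isoform abundant in many fast-growing cells (adjusted p = 0.578). The second TPI1 probe set gave -0.15 (adjusted p = 0.752). Against untreated cells calcitriol gave 0.22 ± 0.085 for ALDOC, an aldolase isoform (adjusted p = 0.538). The glucose transporter SLC2A3 differed by -0.16 between calcitriol and estrogen (adjusted p = 0.522). Across the 36 genes the median change was -0.01 when calcitriol was added to estrogen, against -0.01 over all tested probe sets, with 16 genes above 0. It was 0.06 for calcitriol against untreated cells, against -0.00108, with 31 genes above 0.

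At an unadjusted p under 0.05, 5 of the 36 genes stood out when calcitriol was added to estrogen, 3 higher and 2 lower, where 7.94% of all probe sets did. For calcitriol against untreated cells there were 7, all higher, where 6.55% of all probe sets did. The precision limits what these values exclude: among the genes not called when calcitriol was added to estrogen, no 95% interval reached beyond a 1.37-fold change, and for calcitriol against untreated cells none reached beyond 1.34-fold. The median interval ran 0.15 to either side.

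**Figure D2:**
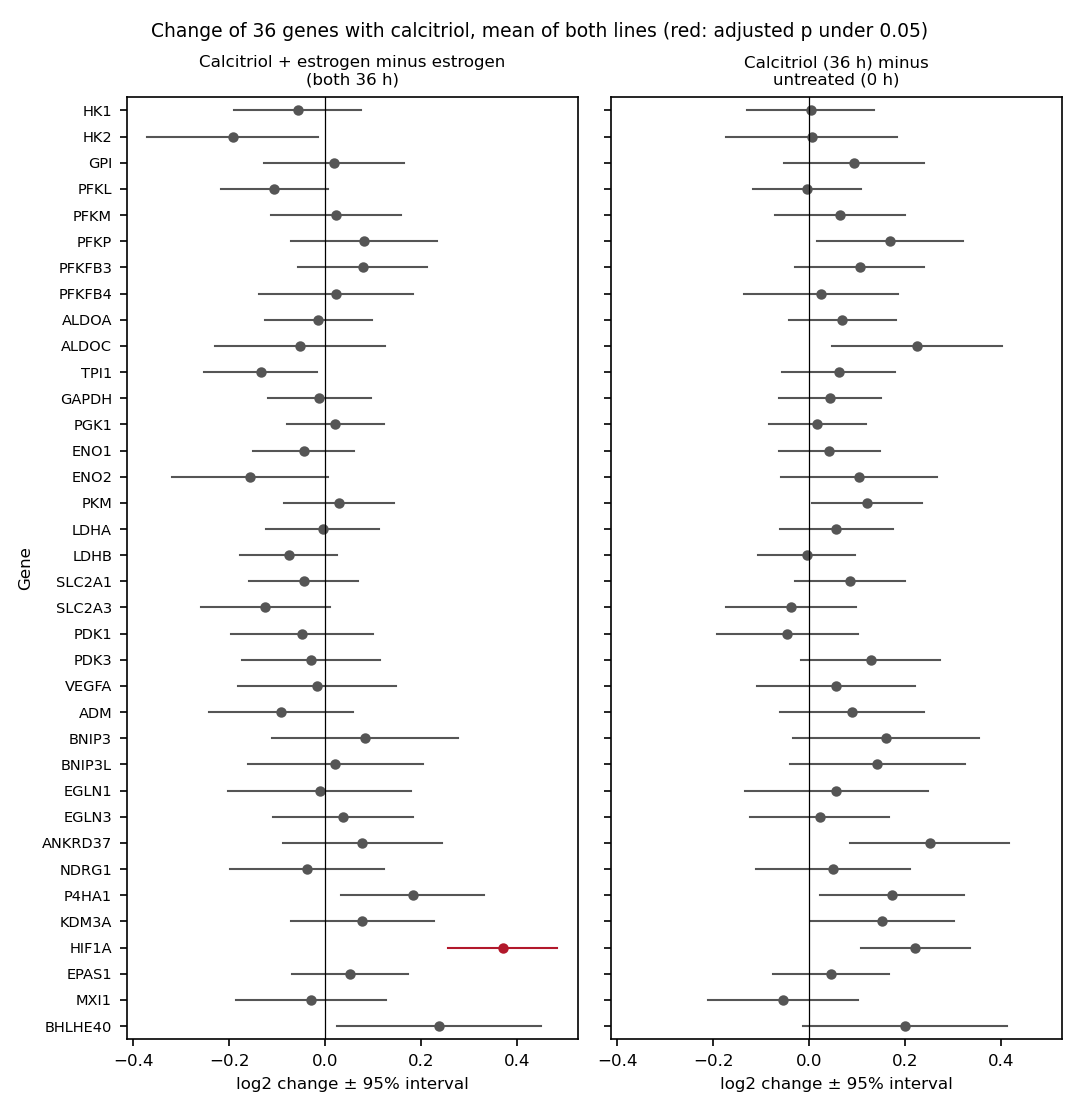
Change of each of the 36 genes with calcitriol, averaged over both lines (log2, horizontal axes; points are estimates and bars 95% intervals), for both agents against estrogen on the left and calcitriol against untreated cells on the right. HIF1A, at 0.37 in the left panel, is the 1 gene with an adjusted p under 0.05 (red), and the other genes lie between -0.19 and 0.25.

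Estrogen left no called change in these genes. Against untreated cells limma called 0 of the 36, and 0% of all tested probe sets. At an unadjusted p under 0.05 there was 1 gene, where 5.17% of all probe sets passed. The 4 genes with the smallest p were NDRG1, a stress-responsive differentiation gene (0.17, adjusted p = 0.948), the vasodilator peptide gene ADM (0.15, adjusted p = 0.953), ALDOC (0.16, adjusted p = 0.953) and SLC2A3 (0.12, adjusted p = 0.954). No 95% interval of the 36 reached beyond a 1.27-fold change.

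Estrogen added to calcitriol, matched for time, called 0 of the 36 genes and 0% of all probe sets, with 1 gene at an unadjusted p under 0.05 against 8.35% of all probe sets. That gene was TPI1, at -0.15 (adjusted p = 0.524). EPAS1 followed at -0.10 (adjusted p = 0.669) and ENO2, the neuronal enolase, at -0.13 (adjusted p = 0.694). The interaction of the agents, which asks whether their joint effect differs from the sum of the single ones, called 0 of the 36 and 0% of all probe sets, with 3 genes at an unadjusted p under 0.05 against 4.41%.

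All arrays at 36 h were also set as 1 set against the untreated arrays at 0 h. Limma called 0 of the 36 genes there, against 0.457% of all probe sets, with 6 genes at an unadjusted p under 0.05, all higher, against 7.73%. HIF1A differed by 0.15 (adjusted p = 0.195), ANKRD37 by 0.19 (adjusted p = 0.362), P4HA1 by 0.15 (adjusted p = 0.512) and ALDOC by 0.17 (adjusted p = 0.541). Of the 36 genes 31 lay above 0, with a median of 0.04, against 0.00337 over all probe sets. VEGFA, the blood vessel growth factor, differed by 0.03 (adjusted p = 0.973), with group means between 6.17 and 6.38 in all 8 groups. The part of oxygen supply in these values was not tested.

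The lines themselves differed in many of these genes. With the 4 agents averaged, GM10861 differed from GM10855 in 23 of the 36 genes (63.9%), where 41.8% of all tested probe sets were called. It was higher in 17 genes (23.4% of all probe sets) and lower in 6 (18.4% of all probe sets). These shares include dimmer probe sets, fewer of which were called. At a mean log2 signal of at least 5, which all 36 genes had, 32.3% of probe sets were higher and 22.9% lower. The 12 arrays of GM10861 and the 12 of GM10855 did not overlap for 9 genes (25%), against 10.4% of all probe sets. The 10.4% also includes dimmer probe sets, and the share at the signal of these genes was not taken. The line cannot be told apart from the order of the samples, since all arrays of one line come before those of the other in the submitters' numbering.

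**Figure D3:**
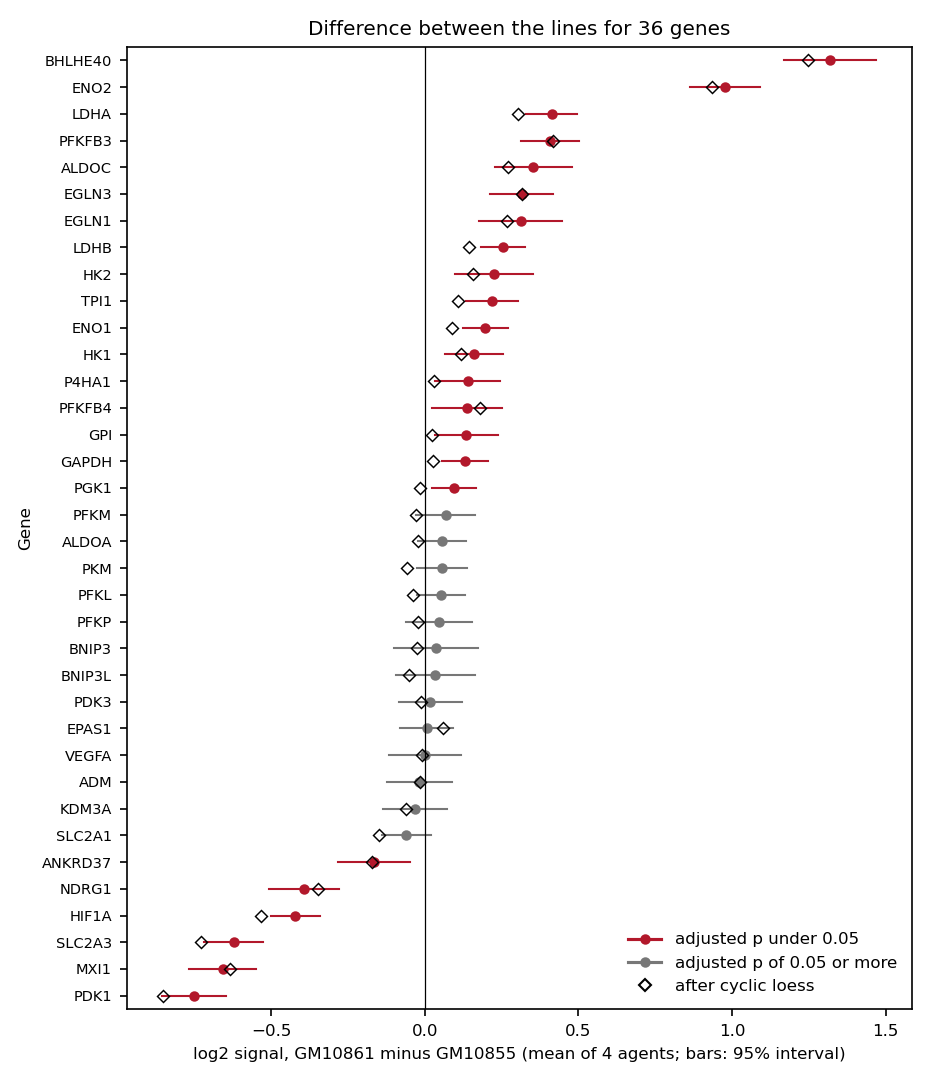
Difference between the lines for each of the 36 genes, GM10861 minus GM10855 (log2 signal, horizontal axis; filled points are means over the 4 agents, bars 95% intervals, red for an adjusted p under 0.05, open diamonds the same difference after cyclic loess). BHLHE40 at 1.32 and ENO2 at 0.98 stand at the top and PDK1 at -0.75 at the bottom; several small positive differences of the enzymes move to 0 or below after cyclic loess.

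Of the enzymes from glucose to lactate, counted without the enzymes that set fructose 2,6-bisphosphate, 16 were measured. Higher in GM10861 were 11 and lower 0, where 23.4% of all probe sets were higher and 18.4% lower (20.3% and 18.8% after cyclic loess). At a mean log2 signal of at least 5 those shares were 32.3% and 22.9%, and the share called higher rose further with signal, as given below. All 16 differences were positive as deposited, with a median of 0.15 against -0.02 over all probe sets, but after cyclic loess 8 were higher, 10 were positive and the median was 0.06. ENO2 had the widest gap. It ranged over 6.95, 7.21 and 7.49 (lowest, median and highest array) in GM10861 and over 5.99, 6.23 and 6.45 in GM10855, a difference of 0.98 ± 0.055 (1.97-fold, adjusted p = 4.39e-13). The ubiquitous enolase ENO1 was among the 11 with a far smaller difference, 0.20.

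LDHA and LDHB encode the M and H chains of lactate dehydrogenase, which interconverts pyruvate and lactate. LDHA ranged over 11.56, 11.74 and 11.79 in GM10861 and over 11.13, 11.32 and 11.52 in GM10855, a difference of 0.41 ± 0.040 (1.33-fold, adjusted p = 7.23e-09). LDHB ranged over 11.47, 11.58 and 11.64 in GM10861 and over 11.22, 11.30 and 11.45 in GM10855, a difference of 0.26 ± 0.035 (1.19-fold, adjusted p = 1.47e-06). Neither gene had overlapping arrays between the lines. Both differences kept their calls after cyclic loess, at 0.30 and 0.14.

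PFKFB3 makes fructose 2,6-bisphosphate, the activator of phosphofructokinase. It ranged over 6.14, 6.26 and 6.46 in GM10861 and over 5.60, 5.86 and 6.06 in GM10855, a difference of 0.41 ± 0.046 (adjusted p = 9.15e-08), and 0.42 after cyclic loess. The phosphofructokinase genes PFKL, PFKM and PFKP themselves were not called, at 0.05, 0.07 and 0.04. ALDOC was higher by 0.35 ± 0.060 (adjusted p = 3.68e-05), HK2 by 0.22 ± 0.061 (adjusted p = 0.00446) and TPI1 by 0.22 ± 0.040 (adjusted p = 9.42e-05), with overlapping arrays. The second TPI1 probe set gave 0.16 (adjusted p = 0.0383). The other 7 genes called higher were ENO1, HK1, P4HA1, PFKFB4, GPI, GAPDH and PGK1, at 0.09 to 0.20, and of these GPI, GAPDH, PGK1 and P4HA1 lost their calls after cyclic loess, with PGK1 turning to -0.02.

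Of the 2 glucose transporters 1 was lower in GM10861, and so was 1 of the 2 pyruvate dehydrogenase kinases. SLC2A3, the high-affinity glucose transporter, ranged over 7.86, 8.11 and 8.17 in GM10861 and over 8.47, 8.71 and 8.87 in GM10855, a difference of -0.62 ± 0.046 (0.65-fold, adjusted p = 5.92e-11). PDK1, the kinase that inhibits pyruvate dehydrogenase, ranged over 7.77, 7.88 and 8.16 in GM10861 and over 8.49, 8.60 and 8.88 in GM10855, a difference of -0.75 ± 0.050 (0.59-fold, adjusted p = 9.85e-12). Both are HIF-1 targets, and every array of GM10861 lay below every array of GM10855. The other transporter, SLC2A1, gave -0.06 (adjusted p = 0.226) as deposited and was called lower after cyclic loess, at -0.15 (adjusted p = 0.00116). The other kinase, PDK3, gave 0.02 (adjusted p = 0.804).

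**Figure D4:**
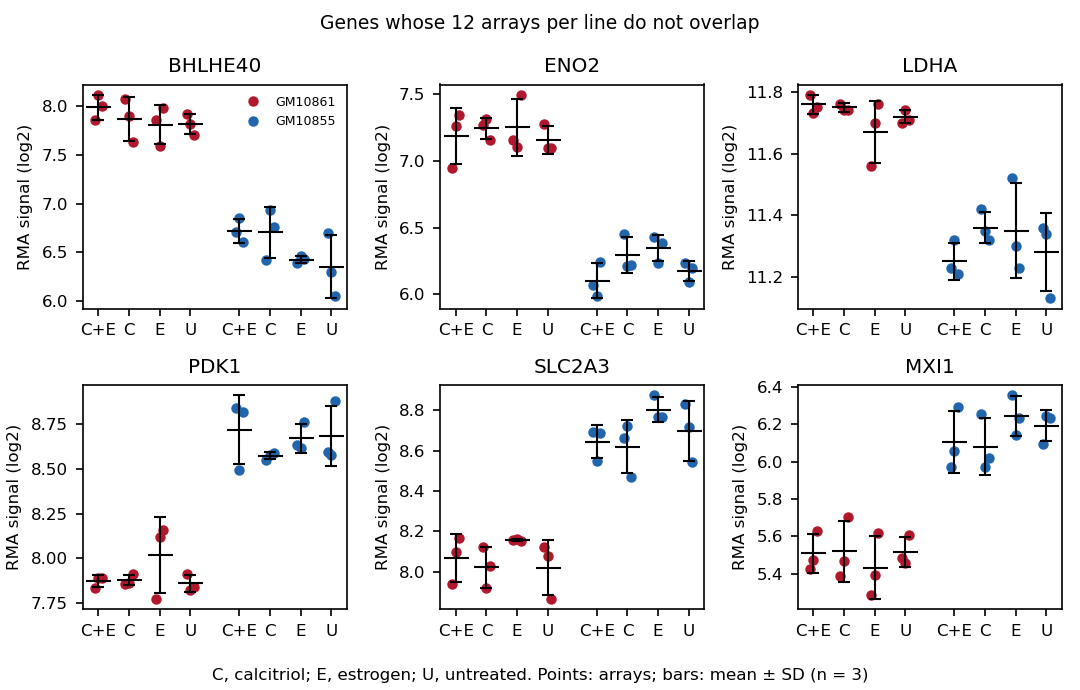
Signal (log2, vertical axes) of BHLHE40, ENO2, LDHA, PDK1, SLC2A3 and MXI1, which are 6 of the 9 genes whose arrays do not overlap between the lines, by agent along the horizontal axes (C, calcitriol; E, estrogen; U, untreated), with GM10861 on the left and GM10855 on the right; points are arrays and bars mean ± SD of 3. The upper 3 genes are higher in GM10861 under every agent and the lower 3 are lower.

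The regulators split as well. HIF1A ranged over 8.68, 8.89 and 8.999 in GM10861 and over 8.93, 9.28 and 9.67 in GM10855, a difference of -0.42 ± 0.039 (0.75-fold, adjusted p = 2.95e-09). The lines overlapped only between 8.93 and 8.999. The difference was -0.25 in untreated cells (adjusted p = 0.021) and -0.63 with both agents (adjusted p = 1.31e-06). EGLN3 was higher in GM10861 by 0.31 ± 0.050 (adjusted p = 1.27e-05), with no overlap of arrays, and EGLN1 by 0.31 ± 0.065 (adjusted p = 0.000398). GM10861 had the lower HIF1A signal and the higher signals of both hydroxylases, and a link between them was not tested.

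BHLHE40, also known as DEC1, ranged over 7.59, 7.88 and 8.11 in GM10861 and over 6.06, 6.53 and 6.94 in GM10855, a difference of 1.32 ± 0.073 (2.49-fold, adjusted p = 2.7e-13). MXI1, a MAX partner that opposes MYC, ranged over 5.29, 5.47 and 5.70 in GM10861 and over 5.97, 6.19 and 6.35 in GM10855, a difference of -0.66 ± 0.053 (0.63-fold, adjusted p = 2.89e-10). These factors, both targets of HIF-1, thus stood on opposite sides with no overlap.

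Of the 8 remaining hypoxia targets, 1 was higher and 2 were lower, near the shares of all probe sets (23.4% and 18.4%). NDRG1 was lower in GM10861 by -0.39 ± 0.055 (adjusted p = 2.17e-06) and ANKRD37 by -0.17 ± 0.057 (adjusted p = 0.0212), and P4HA1 was the gene that was higher. VEGFA (-0.0003), ADM (-0.02), BNIP3 and BNIP3L, which mark mitochondria for removal (0.04 and 0.03), and the histone demethylase gene KDM3A (-0.03) were not called. No 95% interval of the 13 genes not called reached beyond a 1.13-fold change.

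The lines were also compared under each agent. GM10861 against GM10855 called 15 of the 36 genes in untreated cells (24.3% of all probe sets), 17 with both agents (19.8%), 11 with calcitriol (19%) and 12 with estrogen (19.3%), on 3 arrays a group. These shares too include probe sets dimmer than the 36 genes. ENO2, LDHA, LDHB, PFKFB3, EGLN3, BHLHE40, SLC2A3, PDK1, NDRG1, HIF1A and MXI1 were called under all 4. The difference of ENO2 ran from 0.90 to 1.08 over the agents, that of LDHA from 0.32 to 0.51 and that of PDK1 from -0.84 to -0.65.

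Differences between the lines moved with signal. Over all tested probe sets, 15.2% were higher in GM10861 where the mean signal was under 7, 45.8% from 7 to under 9 and 51% at 9 and over, and the medians of the difference were -0.04, 0.09 and 0.11. The glycolytic enzymes include some of the brightest probe sets, such as GAPDH and ENO1, and 7 of the 9 genes at 9 and over were called higher, against 6 of 14 genes under 7. The part of brightness in the small differences of GAPDH, ENO1, TPI1, PGK1 and GPI was not tested. PFKFB3, EGLN3 and ENO2, called higher by 0.41, 0.31 and 0.98, had mean signals of 6.05, 6.16 and 6.72. The 15.2% is taken over all probe sets under 7, including far dimmer ones, and is not the share at these signals. Narrower groups of probe sets had mean signals of 5.915, 6.146, 6.385, 6.638 and 6.914. Their 90th percentiles of the difference were 0.272, 0.313, 0.335, 0.44 and 0.41, in that order. ENO2 lay above all of these values, and EGLN3 lay close to the value at 6.146. The part of brightness in the differences of PFKFB3, EGLN3 and ENO2 was not tested.

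**Figure D5:**
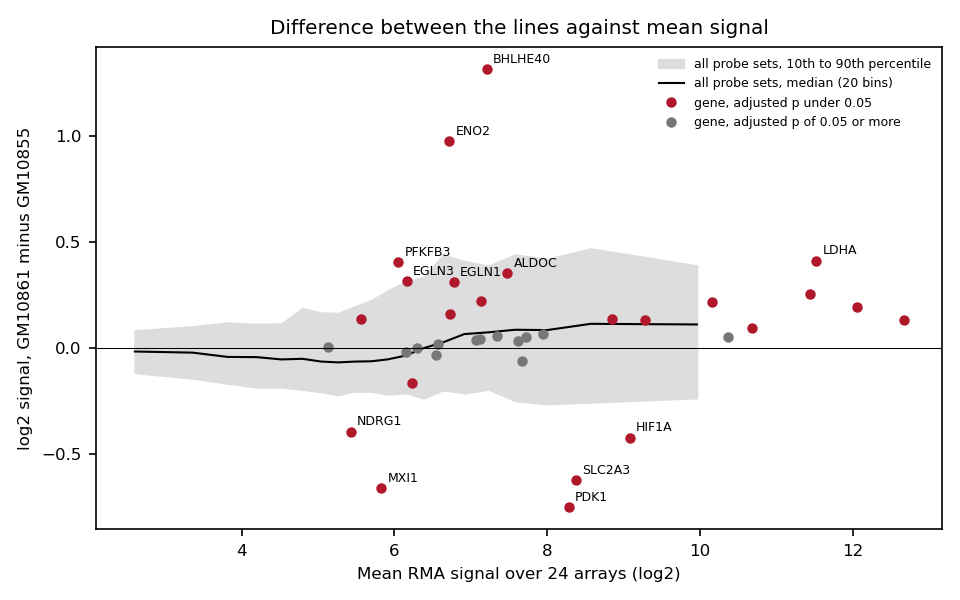
Difference between the lines (GM10861 minus GM10855, log2, vertical axis) against mean signal over the 24 arrays (log2, horizontal axis); points are the 36 genes, red where the adjusted p was under 0.05, the line is the median of all tested probe sets in 20 bins and the band their 10th to 90th percentile. The median rises to 0.11 in the brightest bin, and BHLHE40, ENO2, SLC2A3, PDK1 and MXI1 lie far outside the band.

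The neighbouring pathways were read from lists of 80 further genes, of which 73 were measured. Calcitriol against untreated cells called 2 of them, both higher, where 0.679% of all probe sets were called. DDIT4 is a hypoxia-induced inhibitor of mTORC1. In GM10861 it had 8.26, 8.18 and 8.34 with calcitriol, against 7.80, 7.67 and 7.67 in untreated cells. In GM10855 it had 8.54, 8.64 and 8.59 with calcitriol, against 8.11, 7.69 and 7.82 in untreated cells. The groups did not overlap in either line, and the rise was 0.63 ± 0.077 (adjusted p = 2.9e-05). CXCR4, the chemokine receptor that HIF-1 induces, averaged 9.11 with calcitriol and 8.97 untreated in GM10861, where the arrays overlapped. In GM10855 it averaged 6.38 with calcitriol and 5.77 untreated. Over both lines it rose by 0.38 ± 0.081 (adjusted p = 0.0209). That call was lost in 6 of the 24 fits that left out 1 array (up to 0.0906). All 36 h groups against untreated cells also called 2, where 0.457% of all probe sets were called. They were DDIT4 at 0.35 (adjusted p = 0.00465) and CXCR4 at 0.33 (adjusted p = 0.0144). Calcitriol against estrogen, matched for time, called 1, where 0.57% of all probe sets were called. It was DDIT4, at 0.60 (adjusted p = 5.74e-05), and CXCR4 was not called there. When calcitriol was added to estrogen, both were again the 2 called (0.754% of all probe sets), DDIT4 at 0.37 (adjusted p = 0.0167, not passed in 5 of those 24 fits, up to 0.0607, nor in 1 of 5 other fits, that of the compared arrays alone, at 0.0683) and CXCR4 at 0.35 (adjusted p = 0.0397, lost in 13, up to 0.136, and in 1 of 5 other fits, at 0.129).

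Of the 7 measured partners in oxygen sensing, 0 were called with calcitriol (1 at an unadjusted p under 0.05 against untreated cells and 2 when added to estrogen). VHL, which takes hydroxylated HIF-1 alpha to destruction, gave 0.27 against untreated cells (adjusted p = 0.0651). No gene was called with estrogen (0 of 73 against untreated cells and 0 of 73 when added to calcitriol, with 5 and 9 at an unadjusted p under 0.05, where 5.17% and 8.35% of all probe sets passed). In the lists of pyruvate entry, the pentose phosphate pathway, gluconeogenesis and other isoforms, calcitriol called 0 genes against untreated cells and 0 when added to estrogen.

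Between the lines 22 of the 73 were higher in GM10861 and 25 lower. The shares of all probe sets beside which these counts and those of each list stand are 23.4% higher and 18.4% lower. PLOD2, a HIF-1 target that hydroxylates collagen lysines, averaged 9.17 with both agents, 9.21 with calcitriol, 9.20 with estrogen and 9.26 untreated in GM10861, against 4.93, 4.63, 4.82 and 4.54 in GM10855, a difference of 4.48 ± 0.061 (22.3-fold, adjusted p = 5.85e-25). CXCR4 was higher by 2.87 (adjusted p = 7.38e-22). Of the 28 measured further hypoxia-induced genes, 6 were higher, near the 23.4% of all probe sets, and 13 lower, against 18.4%, the lower ones led by RORA at -1.005 and P4HA2 at -0.79. The collagen hydroxylase genes named here did not share a direction. PLOD2 and P4HA1 (0.14, a call lost after cyclic loess) were higher, and P4HA2 and PLOD1 (-0.25) were lower. PLOD2 in GM10855 and P4HA2 in GM10861 lay near the lower quartile of tested probe sets (4.65), so the sizes of their differences rest on dim signals.

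In oxygen sensing 4 of 7 genes were higher, HIF1AN, which blocks HIF activity by hydroxylating an asparagine (0.32, adjusted p = 1.7e-07), VHL (0.32, adjusted p = 3.81e-06), ARNT (0.21) and EP300 (0.20), and CITED2, a competitor for EP300, was lower (-0.16). In the pentose phosphate pathway 5 of 6 were higher and 0 lower (23.4% and 18.4% of all probe sets), led by RPIA at 0.64 (adjusted p = 2.25e-10). In pyruvate entry 5 of 11 were higher and 2 lower. The subunits of the pyruvate carrier stood apart, with MPC2 higher by 0.67 and MPC1 lower, at -0.33. Among the other isoforms 1 of 16 was higher, the monocarboxylate carrier SLC16A7 (1.13), and 9 were lower, among them PFKFB2 (-0.62) and TIGAR, a fructose 2,6-bisphosphatase (-0.41). In gluconeogenesis 1 of 5 was higher, PCK2 (0.25, adjusted p = 0.00325).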

How the data were processed

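RMA log2 signals, 1 per probe set and array, were deposited. According to the submitters' processing notes, RMA was run in version 1.0.1 of Affymetrix Expression Console. It gives all arrays the same distribution, which hides a change common to most genes and shrinks differences of dim probe sets. Of 33297 probe sets, 19460 had 1 symbol, 1754 several and 12083 none. No detection calls were used, and the number of arrays limits the precision.

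Tests used limma 3.58.1 in R 4.3.3 on the deposited values, with 1 mean per group over the 24 arrays (16 residual and 6.73 prior degrees of freedom) and Benjamini-Hochberg adjustment over 21214 probe sets with a symbol. A gene was called at an adjusted p under 0.05. Agent contrasts average both lines. Whether replicate arrays stand for separate cultures is not stated in the labels, so p-values measure only the spread between them, which may be technical. The script was tested on simulated data. Errors of changes are standard errors.

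The members and the lists were chosen with earlier results of these data known. Genes were chosen for naming by a rule. It took called members (the 10 largest in a direction where more passed) and, where fewer than 4 passed, the 4 with the smallest p. From other lists it took up to 6 called genes in each direction, or the 1 with the smallest p. Not all genes so chosen are given above. The interaction of the agents has none, and the differences between the lines in response have HIF1A at most. The line differences in response to calcitriol added to estrogen and against estrogen were added after seeing the data. The alternatives were a filter at a mean log2 signal of 5, median centring, cyclic loess, eBayes with trend and robust estimation, the compared arrays alone, the mean of a gene's probe sets, and each array left out.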

Additional observations from a re-analysis of the deposited data

How the results depend on the processing

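The count of called genes for calcitriol against untreated cells was 0 as reported. It was 1, HIF1A, with the filter on mean signal (adjusted p = 0.0375), after cyclic loess (adjusted p = 0.0375) and with trend and robust eBayes (adjusted p = 0.0134), and it ranged between 0 and 1 when 1 array was left out. No other count for an agent moved under any alternative run. For GM10861 against GM10855 the count was 20 after cyclic loess and ranged between 19 and 23 when 1 array was left out. Of 2132 alternatives for 72 gene results chosen for naming, 2128 kept direction and side of the threshold. None lost a call (0), 0 reversed and 4 gained one, all for HIF1A with calcitriol against untreated cells. Only 19 of the 72 were called as reported. The others had no call to lose, and many lay far from the threshold, so the 2128 says little about how firm the results are. Those 72 leave out the 7 smaller line differences called higher, of which GPI, GAPDH, PGK1 and P4HA1 lost their calls after cyclic loess, and the genes of the other lists, of which DDIT4 and CXCR4 lost calls in several fits. No scaling moved the median of all probe sets by 0.1. No paired analysis was possible because the labels give no replicate numbers, and those used here follow the order of the sample list. With 3 arrays a group, the standard error of an agent's effect was 0.0742 for the median probe set, which limits the detection of small changes.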
